A study of Sus scrofa with 28 samples.

Results

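The glycerolipid synthesis and lipid droplet genes described here are 10 genes, GPD2, AGPAT5, LPIN1, LPIN2, MOGAT1, DGAT1, PLIN2, CIDEB, PNPLA2 and ABHD5. A peak was counted for a gene when its centre lay inside the gene or within 1000 bp of either annotated end. This gave 134 of the 84192 deposited peaks. Peaks that overlapped by at least 1 bp in any of the 28 libraries were joined into sites, and the 134 peaks fell into 36 of 29392 sites. Of these 36 sites, 15 were listed in at least 3 libraries. The genes were selected on the listing of their peaks in these libraries, with fat group and label known. How often and in which groups they were listed is thus a description and was not tested against other genes. Of peaks outside a gene, the farthest one counted had its centre 370.5 bp from PNPLA2, and the nearest ones not counted lay 1141 bp from LPIN2 and 1219 bp from PLIN2.

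Triglyceride is built on glycerol 3-phosphate, which enzymes of the GPD group form from, or oxidise to, dihydroxyacetone phosphate. Acyltransferases of the GPAT and AGPAT families add fatty acids, lipins remove the phosphate, and DGAT enzymes add the last fatty acid. MOGAT enzymes enter the same route from monoacylglycerol. In hepatocytes the product is stored in lipid droplets coated by perilipins or loaded onto lipoproteins, and PNPLA2, helped by ABHD5, starts its breakdown.

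Chromatin accessibility was measured by ATAC-seq, in which a transposase cuts and tags open DNA, in liver cells from female pigs of 1 breed, Zlotnicka White, all labelled day 180. The animals were fed and housed alike and slaughtered at about 100 kg, and the tissue was digested, strained and slowly frozen before library preparation. There were 4 groups of 7 libraries, high fat 200, low fat 200, high fat 600 and low fat 600. The fat groups stand under a tag that names shear force, and neither the tissue in which fat was scored nor the meaning of 200 and 600 is stated. Each title number occurs in both sets, and whether it stands for 1 animal is not stated. Nor do the labels say that libraries of a group come from separate animals, so p-values measure the spread between these libraries.

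The number of listed peaks per library was 39 to 17652, and 15 libraries had at least 1000. Read depth is unknown, so no interval or limit based on counts is given. The 200 libraries came from another sequencing lane than the 600 libraries, per the lane tag in their names, so label and lane cannot be told apart. All 8 hepatocyte markers had a peak in at least 1 library, against 61.6% of all protein-coding genes by the same rule. HPX was listed in 12, FOXA1 in 9, TTR and FGG in 8 each, ALB in 7, HNF4A in 6, and APOA1 and SERPINA1 in 2 each. Of the markers of other cells, none of 8 endothelial and stellate, 5 cholangiocyte and 5 adipocyte genes had one. The count was 2 of 8 for macrophage genes (CD14 in 6 libraries and MARCO in 5), 2 of 6 for lymphocyte genes and 1 of 4 for erythroid genes.

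Listing followed the size of a library's peak list closely. Libraries with at least 1000 peaks listed a median of 5 of the 10 genes (0 to 10, n = 15), and those with fewer a median of 0 (0 to 3, n = 13). The median share of all protein-coding genes listed was 17.7% and 0.539% in these sets of libraries. High fat 200 replicate 7 listed all 10, high fat 200 replicate 1 listed 9 and low fat 200 replicate 1 listed 8. High fat 200 replicate 3, with 6288 peaks, listed 2 of the genes, AGPAT5 and DGAT1, and 17.7% of all protein-coding genes. High fat 600 replicate 3, with 1336 peaks, listed 0 of the 10 and 4.44% of all. By number of libraries the order was AGPAT5 (18), MOGAT1 (13), GPD2 (12), LPIN1 (11), PLIN2 (9), ABHD5 (7), LPIN2 (6), DGAT1 and PNPLA2 (4 each) and CIDEB (3). Of 19484 protein-coding genes, 61.6% had a peak in at least 1 library by the same rule and 39% in at least 3. At least as many libraries as AGPAT5 were reached by 0.518% of them, as MOGAT1 by 3.60% and as PLIN2 by 12.5%. The rule takes in the whole gene, and gene length ran from 2836 bp for CIDEB to 135914 bp for GPD2.

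**Figure D1:**
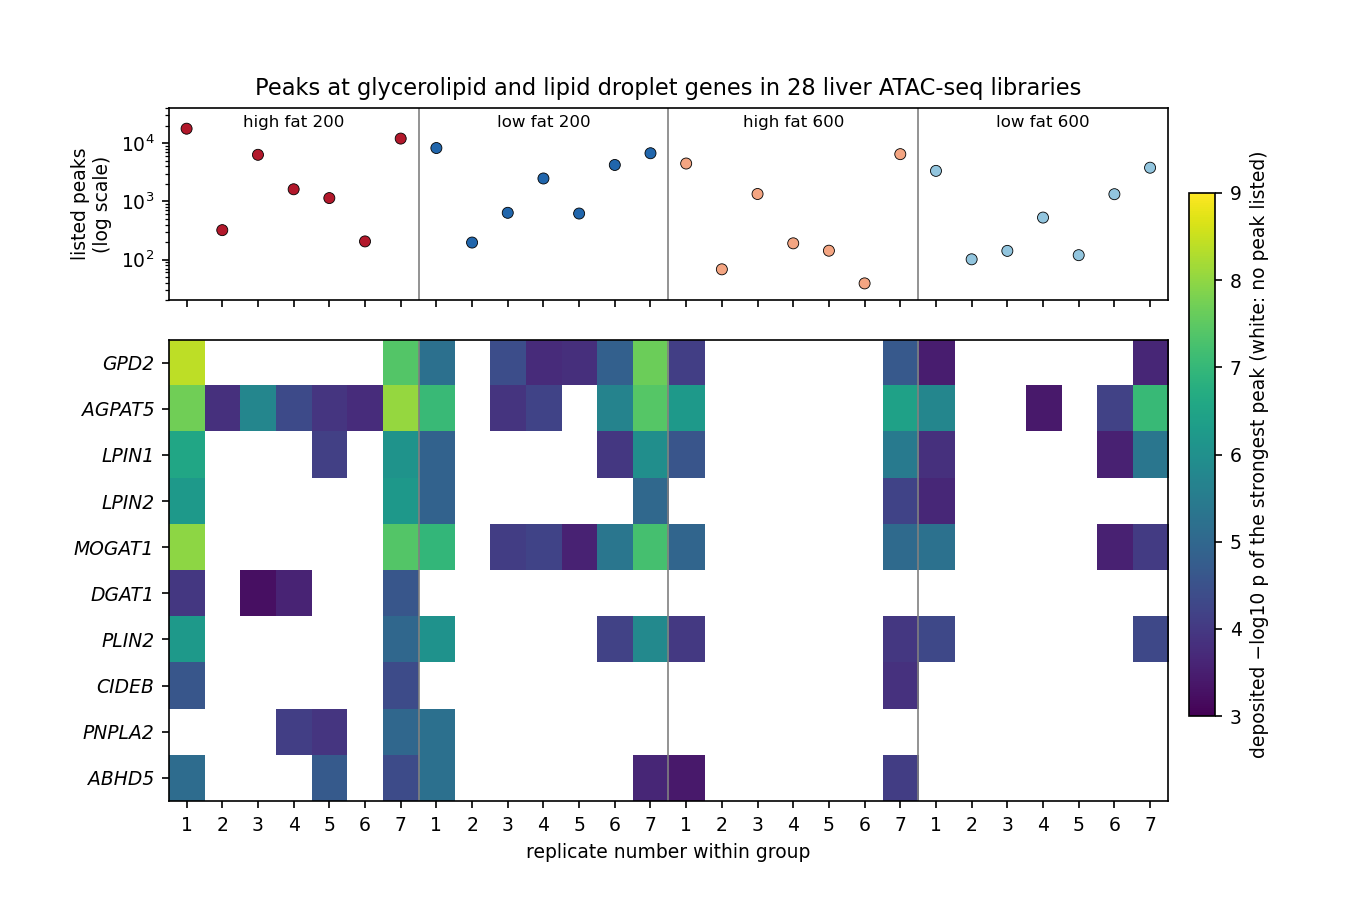
Number of listed peaks per library (upper panel, log scale) and deposited −log10 p of the strongest peak at each of the 10 genes (lower panel, colour, white where no peak is listed), with libraries ordered by group and replicate number. AGPAT5 is filled in 18 of 28 libraries, and most other filled cells stand in replicates 1 and 7 of each group, which have long peak lists.

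GPD2, the mitochondrial glycerol 3-phosphate dehydrogenase, had 1 recurrent site at its lower-numbered end. The gene lies on chromosome 15 from 63592723 to 63728636 (Sscrofa11.1), and the site spanned 63592658 to 63594050. Summits lay 621 to 751 bp inside the gene, counted from that end. The strand of the genes was not given, so the lower-numbered end can be the start or the end of transcription. In high fat 200 libraries the deposited −log10 p was 8.39 in replicate 1 and 7.39 in replicate 7, and the other 5 libraries did not list the site. In low fat 200 libraries it was 5.22, 4.42, 3.74, 3.80, 4.83 and 7.66 in replicates 1, 3, 4, 5, 6 and 7. The 600 libraries gave 4.12 and 4.67 in high fat replicates 1 and 7, and 3.47 and 3.64 in low fat replicates 1 and 7. The site was thus listed in 6 of 7 low fat and 2 of 7 high fat libraries of the 200 set, and in 2 of each in the 600 set. A second GPD2 site, 63674731 to 63675059, was listed in high fat 200 replicate 1 alone.

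AGPAT5, an enzyme of the family that acylates lysophosphatidate, had the most often listed site of all 10 genes. The gene lies on chromosome 15 from 37801121 to 37853472. Its single site spanned 37800234 to 37801915, with summits from -114 to 165 bp relative to the lower-numbered end, negative being outside the gene. All 7 high fat 200 libraries listed it, with −log10 p from 3.77 through a median of 4.34 to 8.05. Of the low fat 200 libraries 5 listed it, with values of 7.07, 3.91, 4.22, 5.69 and 7.43 in replicates 1, 3, 4, 6 and 7. Among 600 libraries the values were 6.22 and 6.44 in high fat replicates 1 and 7. They were 5.76, 3.41, 4.19 and 7.05 in low fat replicates 1, 4, 6 and 7. The values of the fat groups overlapped in both sets. Within a library the site stood high among the peaks where the list was long, at rank 154 of 11943 in high fat 200 replicate 7 and rank 77 of 6288 in high fat 200 replicate 3. In short lists it stood lower, at rank 182 of 205 in high fat 200 replicate 6.

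The lipin genes had no peak near either end, and every listed site lay inside the gene. Lipins are phosphatidate phosphatases that make diacylglycerol and also act as transcriptional coregulators. LPIN1 lies on chromosome 3 from 124940557 to 125074137 and held 33 peaks in 12 sites. Its main site, 125016292 to 125018595, was listed in 10 libraries, with summits 76599 to 76876 bp from the lower-numbered end. There −log10 p was 6.55 and 5.18 in high fat 200 replicates 1 and 7, and 4.88, 3.98 and 5.97 in low fat 200 replicates 1, 6 and 7. In the 600 set it was 4.57 and 5.48 in high fat replicates 1 and 7, and 3.84, 3.56 and 5.36 in low fat replicates 1, 6 and 7. The fat groups overlapped, and the same replicate numbers of the 200 and 600 sets listed the site. Close by, the sites 125020411 to 125021652 and 125022592 to 125023048 were listed in 6 and 3 libraries, and the site 124983522 to 124984613 in 5. The remaining 8 LPIN1 sites were listed in 1 or 2 libraries. A noncoding RNA gene annotated inside LPIN1 begins at 125068377, past the last of these sites.

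LPIN2 lies on chromosome 6 from 103625725 to 103728151 and held 23 peaks in 9 sites. The site 103697243 to 103698906 was listed in 6 libraries. Its −log10 p was 6.25 and 6.20 in high fat 200 replicates 1 and 7, 4.88 and 3.99 in low fat 200 replicates 1 and 7, 3.98 in high fat 600 replicate 7 and 3.66 in low fat 600 replicate 1. At the next site, 103678515 to 103679795, listed in 5 libraries, the values were 5.92 and 6.07 in high fat 200 replicates 1 and 7. They were 4.01 and 4.44 in low fat 200 replicates 1 and 7, and 4.09 in high fat 600 replicate 7. At both sites the 2 high fat 200 libraries stood above the 2 low fat 200 libraries, while 3 other high fat and 2 other low fat 200 libraries with over 1000 peaks did not list them. High fat 200 replicates 1 and 7 also have the longest lists, 17652 and 11943 peaks, and the part of list length in these values was not tested. How many of all sites show this order was not counted. Other LPIN2 sites went the other way. At 103639523 to 103640212 low fat 200 replicate 7 had 4.58, against 4.32 and 4.37 in high fat 200 replicates 1 and 7. At 103702413 to 103702839 low fat 200 replicate 7 had 5.03 and high fat 200 replicate 7 had 4.81. Of all protein-coding genes listed in at least 10 libraries, as LPIN1 was, 8.62% (162 of 1879) had no peak near an end. At 5 or more libraries, as for LPIN2, the share was 12.1% (638 of 5263).

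**Figure D2:**
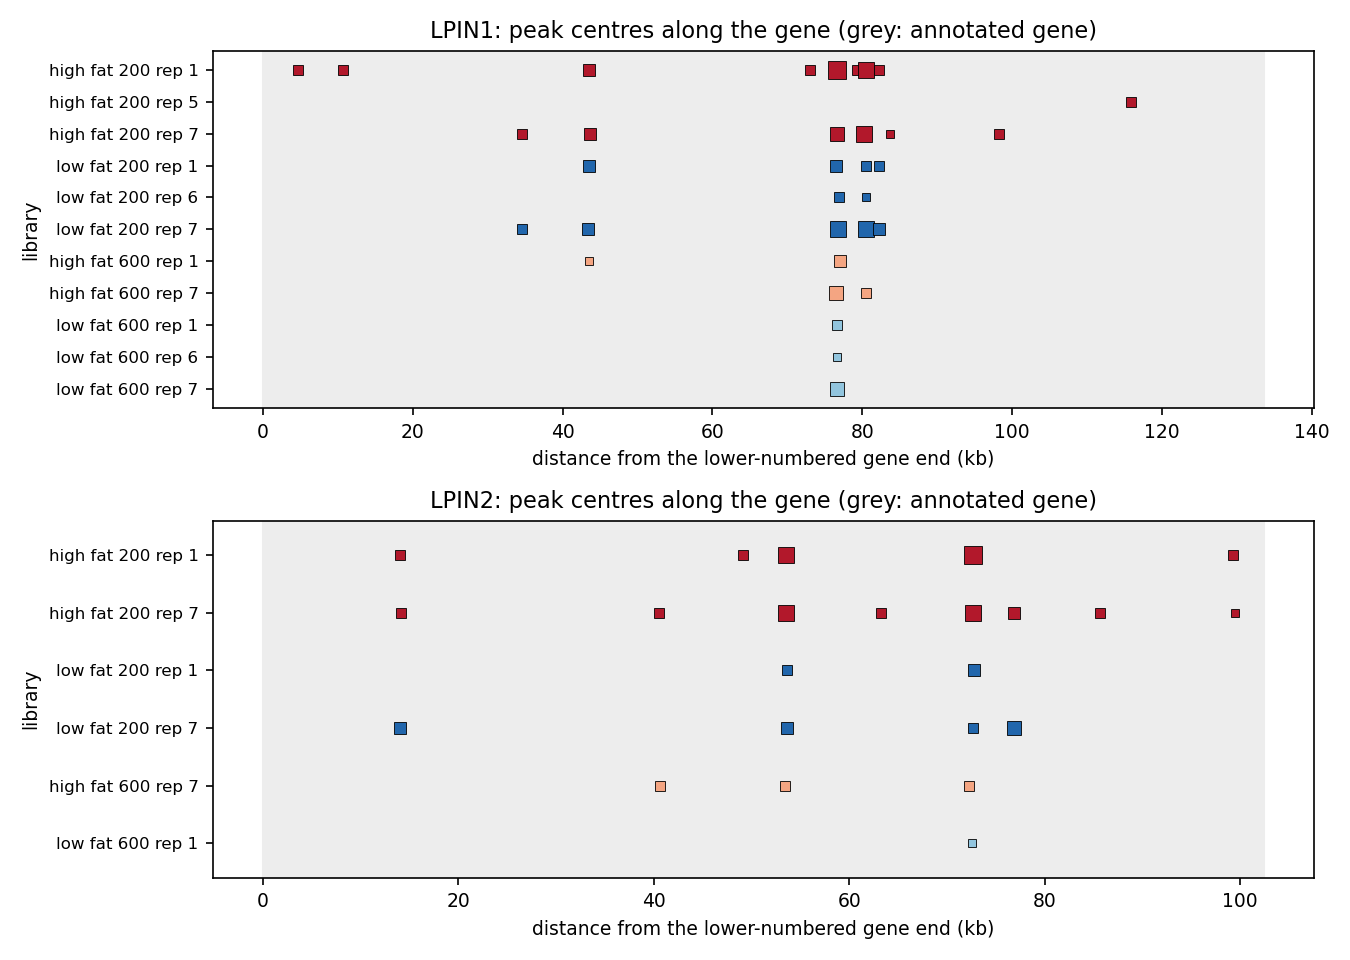
Centres of all peaks in LPIN1 (upper panel) and LPIN2 (lower panel) as distance in kb from the lower-numbered gene end, with 1 row per library that lists any and larger squares for higher −log10 p. The peaks line up across libraries near 77 and 81 kb in LPIN1 and near 54 and 73 kb in LPIN2, and none lies at a gene end.

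MOGAT1, a monoacylglycerol acyltransferase, was listed in 13 libraries at its lower-numbered end. The gene lies on chromosome 15 from 124568449 to 124607925, and an annotated transcribed pseudogene, LOC100523928, overlaps it over 39475 bp, so a peak cannot be given to one of them. The site spanned 124567851 to 124569362, with summits from -181 to 68 bp relative to the MOGAT1 end. In the 200 set −log10 p was 7.98 and 7.39 in high fat replicates 1 and 7. It was 6.98, 4.09, 4.22, 3.57, 5.35 and 7.23 in low fat replicates 1, 3, 4, 5, 6 and 7. In the 600 set it was 4.96 and 5.07 in high fat replicates 1 and 7, and 5.23, 3.56 and 4.04 in low fat replicates 1, 6 and 7. The libraries with the site were the 12 that listed the GPD2 end site and low fat 600 replicate 6. A second site, 124606493 to 124606944, was listed in high fat 200 replicates 1 and 7.

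DGAT1, which adds the last acyl chain of triglyceride, was listed in 4 libraries, all of them high fat 200. The gene lies on chromosome 4 from 452890 to 463665 and overlaps HSF1 by 135 bp at its higher-numbered end. Its end site, 452394 to 453290, had −log10 p of 3.98, 3.61 and 4.60 in replicates 1, 4 and 7. Inside the gene, replicates 3, 4 and 7 listed 1 further peak each, at 3.26, 3.61 and 4.12, which did not overlap one another. These are weak peaks of their libraries, at the 3.56th to the 47.0th percentile of −log10 p.

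PLIN2 encodes the perilipin that coats droplets in hepatocytes and many other cells, and it was listed in 9 libraries at its lower-numbered end. The gene lies on chromosome 1 from 203683867 to 203709277, and the site spanned 203683392 to 203685137, with summits 45 to 219 bp inside the gene. In the 200 set −log10 p was 6.25 and 5.00 in high fat replicates 1 and 7, and 6.06, 4.18 and 5.81 in low fat replicates 1, 6 and 7. In the 600 set it was 4.00 and 3.98 in high fat replicates 1 and 7, and 4.30 in each of low fat replicates 1 and 7. The fat groups overlapped in the 200 set, whereas both low fat values of the 600 set were higher than both high fat values. That order rests on 2 libraries against 2, and how many of all sites show it was not counted. The 2 high fat lists were longer (4455 and 6453 against 3332 and 3775 peaks), and the part of list length was not tested. Only libraries with long lists held this site, the shortest with 3332 peaks.

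CIDEB, a droplet protein of the CIDE family that acts in very low density lipoprotein lipidation, was listed in 3 libraries. The gene lies on chromosome 7 from 74982941 to 74985776. Its site at the lower-numbered end, 74982277 to 74983334, had −log10 p of 4.62 and 4.37 in high fat 200 replicates 1 and 7 and 3.86 in high fat 600 replicate 7. The higher-numbered end of the receptor gene LTB4R2, at 74983811, lies within CIDEB, and the site cannot be given to either gene alone. The second site, 74984709 to 74985245, was listed in high fat 200 replicate 1 at 3.59 and lies near the end shared with NOP9.

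PNPLA2, the adipose triglyceride lipase, and its activator ABHD5 were listed in 4 and 7 libraries. PNPLA2 lies on chromosome 2 from 513065 to 517962. Its site just inside the lower-numbered end, 513272 to 514780, had −log10 p of 4.12, 3.93 and 4.37 in high fat 200 replicates 4, 5 and 7 and 5.22 in low fat 200 replicate 1. The site before it, 512318 to 513168, was listed in high fat 200 replicates 5 and 7 at 3.43 and 5.00. No 600 library listed PNPLA2. ABHD5 lies on chromosome 13 from 27006331 to 27053760, and its lower-numbered end is 168 bp from an end of ANO10, an anoctamin gene. The site there, 27005792 to 27007001, had −log10 p of 5.13, 4.70 and 4.37 in high fat 200 replicates 1, 5 and 7 and 5.22 and 3.64 in low fat 200 replicates 1 and 7. In the 600 set it was listed in high fat replicates 1 and 7 at 3.41 and 4.09. No low fat 600 library listed it. The site takes in the ends of both genes, with summits from -166 to 45 bp relative to the ABHD5 end. It cannot be given to ABHD5 or ANO10 alone.

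The series compares livers of pigs labelled high and low fat, and no member site or gene differed between these groups past the threshold. In the 200 libraries 14 member sites were listed in at least 3 libraries and could be tested. None passed (Fisher's exact test, two-sided, Benjamini-Hochberg over 7342 sites), as none of all sites did (0% called). At an unadjusted p under 0.05 the count was 0 of the 14 and 1 of the 7342. With 7 libraries against 7 the smallest possible p is 0.000583, which a single site cannot carry past the adjustment over 7342. The 600 libraries gave 0 of 5 member sites (0% of 3398 called, 0 with an unadjusted p under 0.05). With a site counted once for the libraries of a title number, it was 0 of 14 (0% of 7883 called, 1 of them with an unadjusted p under 0.05). By gene in place of site, 0 of 9, 0 of 5 and 0 of 9 member genes passed in these 3 comparisons, again with 0% of all genes called. The counts of all genes with an unadjusted p under 0.05 were 3, 0 and 5, none of them members. In a bulk library, fewer cells of a type and less open chromatin per cell cannot be told apart.

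The widest splits ran in opposite directions. GPD2 and MOGAT1 were each listed in 6 of 7 low fat and 2 of 7 high fat 200 libraries (Fisher's exact p = 0.103, adjusted p = 1 for each). DGAT1 as a gene was listed in 4 of 7 high fat and 0 of 7 low fat libraries (exact p = 0.0699, adjusted p = 1). Its end site was listed in 3 high fat and 0 low fat libraries (Fisher's exact p = 0.192). High fat replicate 3 was counted for another peak inside the gene, at rank 6288 of 6288 in its list. With peaks above the median −log10 p of the 200 set, the DGAT1 end site was in too few libraries to test. How many of all genes split 4 to 0 was not counted. AGPAT5 was listed in 7 of 7 high fat and 5 of 7 low fat libraries (exact p = 0.462, adjusted p = 1). Low fat replicates 3 and 5, which listed MOGAT1 and GPD2, had 635 and 617 peaks. MOGAT1 ranked 296 and GPD2 177 in low fat replicate 3, and 583 and 481 in low fat replicate 5. High fat replicate 3 with 6288 and high fat replicates 4 and 5 with 1610 and 1137 peaks listed neither site. The part of list size in these splits was not tested. Of 7342 sites, 13 (0.177%) had at least 4 more low fat than high fat 200 libraries, and GPD2 and MOGAT1 are among these 13. The genes were selected with their listing by fat group known, so this is a description and no measure of an excess. The splits of GPD2 and MOGAT1 were smaller or turned when only stronger peaks were counted. Among libraries with at least 1000 peaks both sites were listed in 4 of 4 low fat and 2 of 5 high fat libraries, but among the 1000 strongest peaks of these libraries the counts were 1 and 2 for GPD2 and 3 and 2 for MOGAT1. With peaks above the median −log10 p of the 200 set, they were 4 of 7 low fat and 2 of 7 high fat for GPD2 and 3 and 2 for MOGAT1. At least 4 more high fat libraries were reached by 9 sites (0.123%), none of them a member site. In all, 6 of the 14 member sites were listed in more low fat libraries, 5 in more high fat libraries and 3 in equal numbers. Over all tested sites these shares were 40.6%, 30.9% and 28.6%. The median high fat 200 library listed 6.10% of protein-coding genes and the median low fat one 12.3%, and the part of this gap in the splits was not tested.

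**Figure D3:**
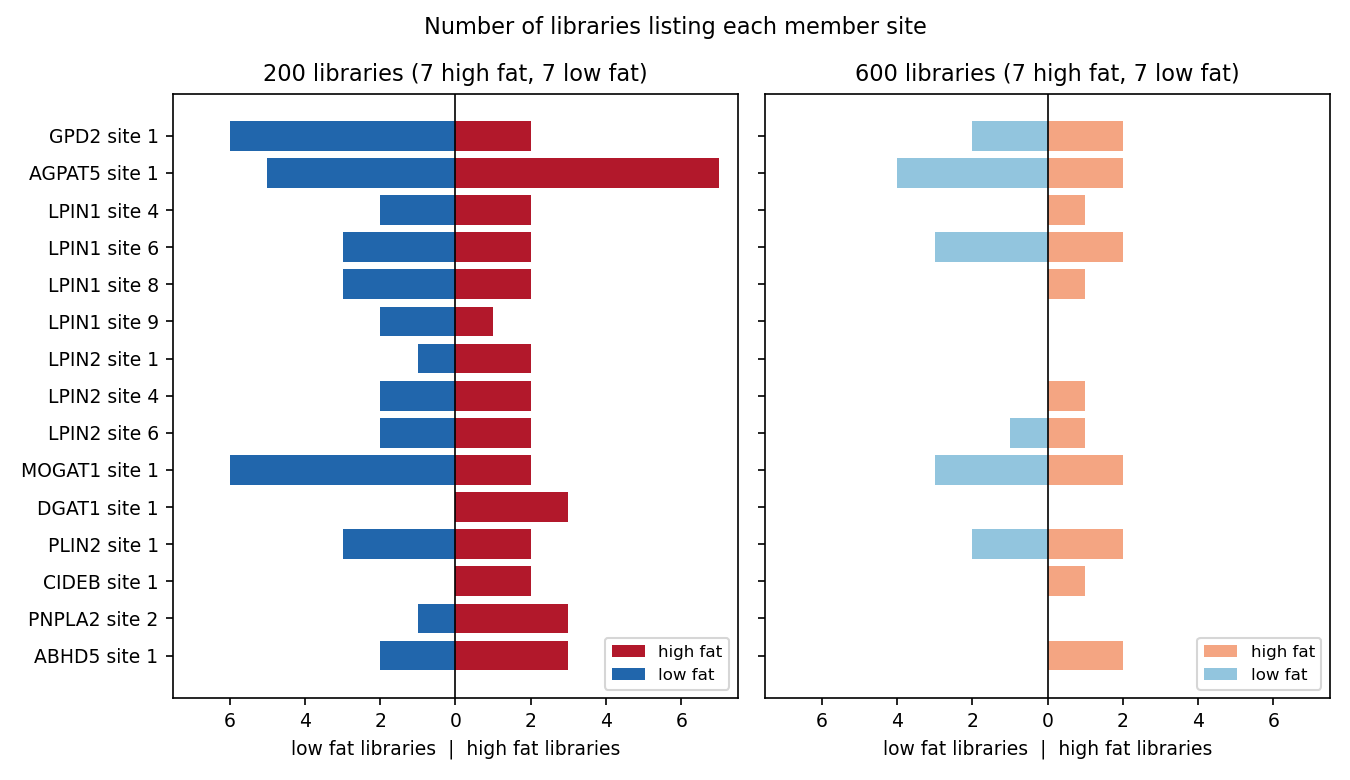
Number of libraries that list each of the 15 member sites found in at least 3 libraries, with low fat to the left and high fat to the right of 0, for the 200 libraries (left panel) and the 600 libraries (right panel). GPD2 site 1 and MOGAT1 site 1 reach 6 low fat and 2 high fat 200 libraries, whereas DGAT1 site 1 and CIDEB site 1 have no low fat library.

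Member sites were listed in fewer 600 than 200 libraries, as were most sites of the genome. AGPAT5 was listed in 6 of 14 of the 600 and 12 of 14 of the 200 libraries (Fisher's exact p = 0.0461, adjusted p = 0.772). For PLIN2 the counts were 4 and 5, for MOGAT1 5 and 8, for GPD2 4 and 8 and for ABHD5 2 and 5. None of 15 member sites passed, against 0.489% of 8592 sites called, 41 of them listed more often in the 200 and 1 in the 600 libraries. Of the member sites, 14 were listed in more 200 libraries, 0 in more 600 libraries and 1, the main LPIN1 site, in 5 of each. Over all tested sites 83.5% were listed in more 200 and 6.63% in more 600 libraries, so the members' direction is that of most sites. Among libraries with at least 1000 peaks, 9 of the 200 and 6 of the 600 set, none of 8538 sites was called, and the tally of the members was less one-sided. PLIN2 was then listed in 4 of 6 of the 600 and 5 of 9 of the 200 libraries, MOGAT1 in 5 of 6 and 6 of 9, and the main LPIN1 site in 5 of 6 and 5 of 9. GPD2 was listed in the same share of both (4 of 6 and 6 of 9), and the other 11 sites in a larger share of the 200 libraries. By gene, 0 of 10 members passed, and 0% of 7598 genes were called.

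Peak width, which played no part in choosing the genes, was larger in the 600 libraries at PLIN2, MOGAT1, GPD2 and AGPAT5, 4 of the 5 member sites tested. The other member sites listed in both sets, in too few libraries to test, also had a larger mean log2 width in the 600 set. At the LPIN2 site 103697243 to 103698906 width was 348 to 475 and 1107 to 1597 bp (log2 difference 1.70, n = 4 and 2). At ABHD5 it was 297 to 687 and 745 to 1118 bp (n = 5 and 2). How many of all sites lack overlap was not counted. The PLIN2 site was 407, 408, 441, 456 and 537 bp wide in the 5 libraries of the 200 set and 1020, 1137, 1295 and 1716 bp in the 4 of the 600 set, with no overlap. The difference of mean log2 width was 1.50 (SD 0.16 within the 200 and 0.32 within the 600 libraries). It passed the exact permutation test of label over libraries (p = 0.00794, adjusted p = 0.0244 over 2165 sites). Width at MOGAT1 was 327 to 1367 bp (median 560, n = 8) in the 200 and 891 to 1229 bp (median 1056, n = 5) in the 600 set, with a log2 difference of 0.93 (exact permutation test, adjusted p = 0.0305). The widest value, 1367 bp, came from high fat 200 replicate 7. AGPAT5 differed by 0.59 on the log2 scale (medians 840.5 and 1376.5 bp, n = 12 and 6, exact permutation test, adjusted p = 0.0184) and GPD2 by 0.65 (medians 672.5 and 1000 bp, n = 8 and 4, same test, adjusted p = 0.0472). At the main LPIN1 site the difference was 0.56 (n = 5 and 5) and did not pass (same exact test, adjusted p = 0.105). This test takes the libraries as independent. With libraries paired by title number no width call held (exact sign-flip p of 0.125 for PLIN2, MOGAT1 and AGPAT5 and 0.25 for GPD2). For PLIN2, 0.125 is the smallest p that its 4 pairs can give.

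Wider peaks in the 600 set were the rule over the genome. Of the 2165 sites listed in at least 4 libraries of each label, 66.7% passed, 1444 of them wider and 1 narrower in the 600 libraries, and the median log2 difference was 0.74. The median peak width per library was 442 to 577 bp in the 200 and 832 to 1124 bp in the 600 libraries, with no overlap. PLIN2 stood at the upper end, since 2.54% of sites had a larger difference, whereas 70.8% did for AGPAT5 and 26.7% for MOGAT1. Some of these calls moved when 1 library was left out. Without any 1 of the 5 libraries of the 200 set that listed PLIN2, its p was 0.0286 by the same permutation test. The log2 difference stayed at 1.47 to 1.57, and the adjusted p was 0.0418 to 0.0502. It missed the threshold only without low fat 200 replicate 6, when 840 of 2113 sites were called. Without high fat 600 replicate 7 the adjusted p of MOGAT1 was 0.0530. PLIN2 and GPD2 were listed in 4 libraries of the 600 set, and leaving out any 1 of these left them untested. GPD2 lost its call without any 1 of high fat 200 replicate 1 and low fat 200 replicates 1, 3, 4, 5 and 6 (adjusted p up to 0.0710).

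**Figure D4:**
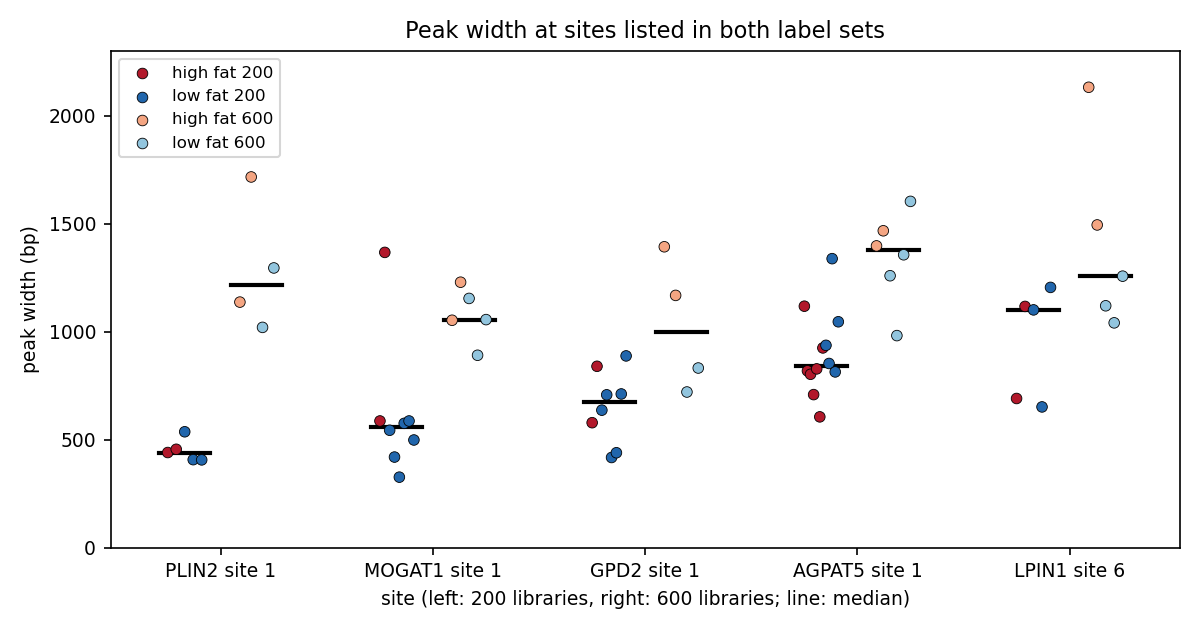
Peak width in bp at the 5 member sites tested for width, each point being 1 library that lists the site, with 200 libraries on the left and 600 libraries on the right of each pair and a line at the median. At PLIN2 the 200 libraries lie between 407 and 537 bp and the 600 libraries between 1020 and 1716 bp, while the label sets overlap at the other sites.

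Of the 8 genes with a peak near an end, all 8 had one at the lower-numbered end, and CIDEB had one near the higher-numbered end as well. Among all protein-coding genes over 2000 bp with a peak at 1 end alone, 50.9% (4297 of 8450) had it at the lower-numbered end. With the strand not given, these counts do not say whether the peaks lie at start sites.

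How far sites of different genes shared libraries varied widely. Over 96 pairs of member sites, the Jaccard index (libraries that list both divided by those that list either) ran from 0.133 through a median of 0.408 to 0.923. The highest were GPD2 with MOGAT1, which shared 12 of 13 libraries, and PLIN2 with the main LPIN1 site, which shared 9 of 10. The lowest was MOGAT1 with PNPLA2, which shared 2 of 15. All pairs are counted over the same 28 libraries with their unequal list lengths, whose part in these values was not tested. The gene-end sites listed most like AGPAT5, among 8133 compared over the 28 libraries, included those of GATAD2A, KCNMB3, TRIM68 and XPO1. Each of these was listed in 18 libraries and shared 17 with AGPAT5 (Jaccard index 0.895).

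Of the wider pathway, 39 of 42 listed genes matched the reference, and 29 besides the 10 described above were looked at by the same rule. A peak was found in 19 of these 29, in at least 3 libraries in 10, and the median was 1 library, which is also the median of all protein-coding genes. Of all protein-coding genes, 61.6% had a peak in at least 1 library and 39% in at least 3. For the supply of glycerol 3-phosphate, the dehydrogenase gene GPD1L and the glycerol kinase gene GK were listed in 12 libraries each, and GPD1, the cytosolic dehydrogenase, in 6. GPD1L and GK were each listed in 5 low fat and 2 high fat 200 libraries (adjusted p = 1 for each, Fisher's exact test). The acyltransferase genes GPAT3, GPAT4 and AGPAT3 were listed in 7, 5 and 4. In lipolysis, the lysosomal lipase gene LIPA was listed in 9 and G0S2, an inhibitor of PNPLA2, in 4. Among droplet genes HSD17B13 was listed in 4 and BSCL2, which encodes seipin, in 3. Besides GPD1L and GK, more low fat than high fat 200 libraries listed LIPA (4 and 2), GPD1 and GPAT3 (3 and 2 each). Fewer low fat than high fat ones listed GPAT4 and AGPAT3 (1 and 2 each), HSD17B13 (0 and 2) and BSCL2 (0 and 1), and G0S2 had 2 of each. No peak was listed for GPAM, GPAT2, AGPAT1, LPIN3, DGAT2, FITM1, PLIN1, PLIN4, CIDEA or CIDEC. None of the 29 passed for fat in the 200 libraries (0 of 8 tested) or the 600 libraries (0 of 3), or for the label (0 of 10), by Fisher's exact test adjusted over all genes.

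**Figure D5:**
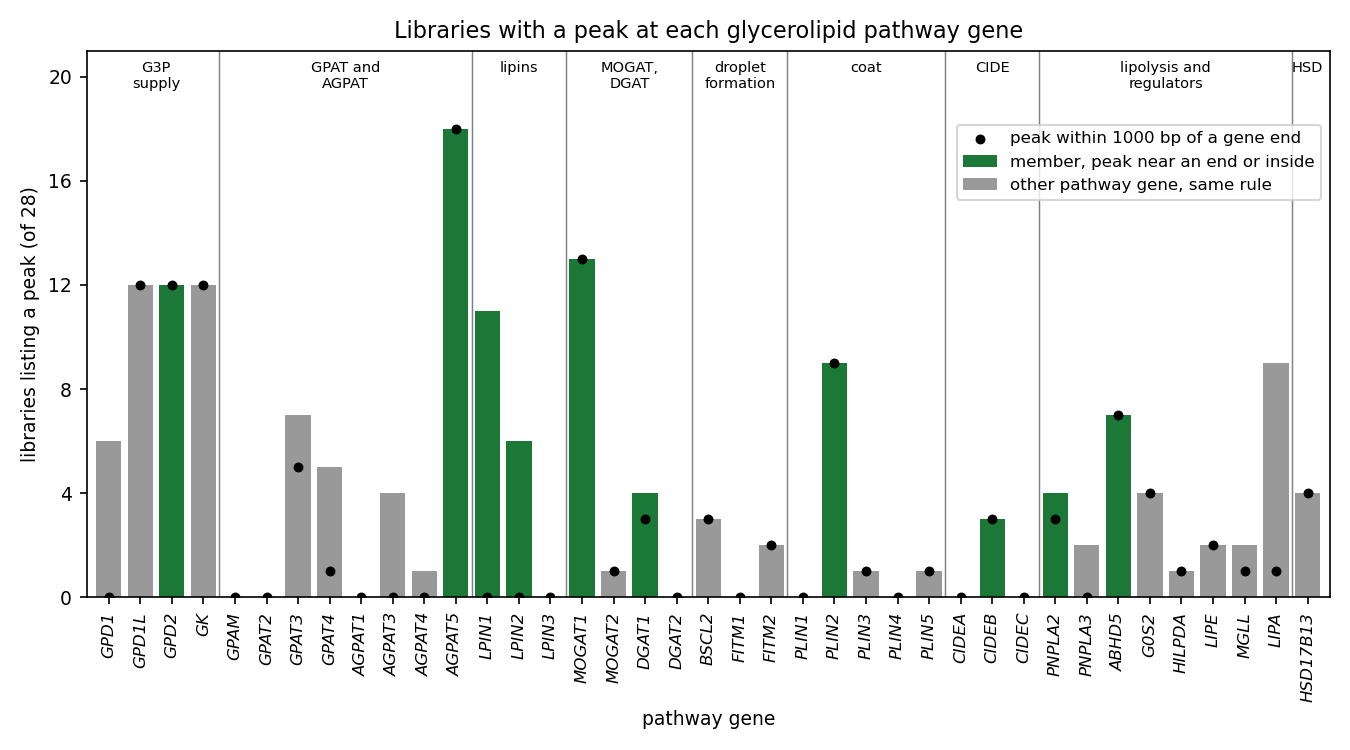
Number of the 28 libraries with a peak near an end of or inside each pathway gene (bars, green for the 10 genes described, grey for the other pathway genes), with black points for a peak within 1000 bp of an end. The group marked G3P supply (genes that form or use glycerol 3-phosphate) and AGPAT5 reach 12 to 18 libraries, except GPD1 with 6. The coat genes other than PLIN2 stay at 0 or 1.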

How the data were processed

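Per the submitters' processing notes, FastQC, BWA, SAMtools, Picard and Genrich were used with build Sscrofa11.1, and versions and roles are not given in the sources used here. The authors deposited 1 peak list per library, with no read counts. Per the file headers, each peak has its position, its summit, and columns named for signal, score and p-value. The deposited p-value column exceeds 1 and holds −log10 p. The deposited signal is the peak area, and the deposited score equals 1000 times signal over width, capped, in 99.9988% of peaks. Score was not used, and area only in that check. These are the authors' values per peak, and those of different libraries carry unknown depth. Starts count from 0 and were raised by 1.

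Peaks overlapping by 1 bp over all 28 libraries were chained into sites, and those in at least 3 libraries of a comparison were tested by Fisher's exact test on presence (Benjamini-Hochberg adjusted, called under 0.05). Width was compared by permutation of the label over libraries, exact for the sites printed, a test added after the data were seen. Scripts were tested on simulated data. Genes came from the RefSeq table of Sscrofa11.1 (28073 genes on the peak chromosomes, no strand). No sequence was used here, so planned motif counts were not run. The 10 genes, the lists, the tests and the alternatives were chosen with earlier results of these data known. Named were all 10 genes with values for sites in at least 3 libraries, and single values for weaker sites chosen afterwards, pathway genes in at least 3 libraries or without a peak, and gene-end sites among the 5 most like AGPAT5, of which 1 is not reported here. Scripts ran on Python 3.11.15 with scipy 1.17.1 for tests, pandas 2.3.3 and numpy 2.4.6 for tables, and matplotlib 3.10.9 for figures.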

Additional observations from a re-analysis of the deposited data

How the results depend on the processing

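Fat calls over all sites and genes were 0 under each alternative run, and 0 member sites and genes were called for fat or label. Of the label calls over all sites, 42, none were left among libraries with at least 1000 peaks (0), with their 1000 strongest peaks (0) or with the replicate block (0). Leaving out 1 library gave 42 to 49. By gene, windows of 2500 and 5000 bp gave 2 and 3 label calls in place of 0. The replicate block, a sign test over libraries that share the labels' replicate number (fat) or title number (label), left the fat calls at 0. Numbers were not taken as pairs in the main tests, since the labels do not say that a title number is 1 animal. Only 3 of 7 high fat and 6 of 7 low fat 200 and 600 libraries with 1 number correlated above 0.1. Between the fat groups, where only the replicate number is shared, 2 of 7 did so in the 200 and 6 of 7 in the 600 set. In each fat group 4 of 7 correlated best with their own number, against 2 of 7 between the fat groups in each set. Libraries that share a title number may thus not be independent. With the block no width call held (exact sign-flip p of 0.125 for PLIN2, MOGAT1 and AGPAT5 and 0.25 for GPD2), and the mean log2 difference was 1.47, 0.69, 0.39 and 0.46 in 4, 5, 6 and 4 pairs. For PLIN2, wider in 4 of 4 pairs, 0.125 is the smallest p that 4 pairs can give. Among libraries with at least 1000 peaks the GPD2 width also lost its call (log2 difference 0.59, permutation test, adjusted p = 0.0762). No member direction was called, and some turned. High minus low fat became 14.3 percentage points at the LPIN1 site 8 (200 and both labels), the LPIN1 site 6 and LPIN1 as a gene (600) with peaks above the label median. It became 15 points at GPD2 with the 1000 strongest peaks (200 and both labels). With libraries of at least 1000 peaks, 600 minus 200 became 11.11 points at PLIN2 and 16.7 at MOGAT1, by site and by gene, and 16.7 at LPIN1. At the LPIN1 site 6 it went from 0 to 27.8 points, and to 50 points with the 1000 strongest peaks (3 of 6 against 0 of 9 libraries, Fisher's exact unadjusted p = 0.0440, not called). The cause was not tested. Chaining within the comparison equals the main one where all 28 libraries enter. Depth is unknown, so an unlisted site may be closed or thinly sequenced.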

Other observations

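The sites with the widest fat splits in the 200 libraries include genes outside glycerolipid metabolism. Of the 13 sites towards low fat, each in 6 low fat and 2 high fat libraries, 2 are those of GPD2 and MOGAT1. Another 8 lie at an end of BCKDHB, a subunit gene of branched-chain keto acid breakdown, NFKBIZ, an NF-kappa-B modulator gene, CNKSR3, GTDC1, EEPD1, ZNF672, ISOC1 or YAF2, and 3 at no end of a named protein-coding gene (Fisher's exact p = 0.103, adjusted p = 1 for each). Of the 9 sites towards high fat, 3 lie at gene ends, those of SNX4, SLBP and both SF3B6 and TP53I3, each in 4 high fat and 0 low fat libraries (exact p = 0.0699, adjusted p = 1). Another 4 of the 9 lie close together on chromosome 5, between 39811073 and 40191899, and 1 of these, 39886199 to 39887730, was listed in 5 high fat and 0 low fat libraries (exact p = 0.0210, adjusted p = 1). These sites were named after their values were seen.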
